A study of Mus musculus with 6 samples.

Results

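The genes of sterol and fatty acid synthesis were followed in mouse cells with and without valproic acid (VPA), a branched short-chain fatty acid that inhibits histone deacetylases. The list named 32 genes by their symbols: enzymes of the mevalonate, sterol and fatty acid pathways, the proteins that switch them on and off, and a few carriers and regulators of sterol export. Of these, 30 had a probe set with a single gene symbol, out of 19938 genes in all, and Acat2 and Nr1h2 had no match. Where a gene had several probe sets, the one with the highest mean over the 6 arrays stood for it.

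The titles name 3 control arrays and 3 VPA arrays of prostate cancer cells, each described as a biological replicate and hybridised to an Affymetrix mouse Gene 1.0 ST array. The name of the line, the dose and the length of treatment were not given in the sources used here. Against the titles, the strain and cell type fields call the control samples differentiated stem cells of strain 129SV and the VPA samples undifferentiated stem cells of Stra8-EGFP/Rosa26, with the same division of the samples, so every VPA minus control difference rests on the titles. If the second set of fields were right, the differences would be between those cells and strains, and the 2 readings cannot be told apart by the groups alone.

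Cholesterol is built from acetyl-CoA through mevalonate, farnesyl diphosphate, squalene and lanosterol, and saturated fatty acids are built from acetyl-CoA and malonyl-CoA. Most of these enzymes are transcribed under SREBP factors, which are held in the endoplasmic reticulum by Scap and the Insig proteins when sterols are plentiful and are released to the nucleus when sterols run low. Because one switch serves many genes, their messenger RNA levels often move as a block in cultured cells, and cancer cells, prostate cancer among them, are known for active lipid synthesis.

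No member passed the test of VPA against control: 0 of 30 rose and 0 of 30 fell by limma at an adjusted p under 0.05, where 2.34% of all genes tested passed. At an unadjusted p under 0.05 there were 4 members, Insig2 and Dhcr7 with higher values and Fasn and Cyp51 with lower values in the VPA arrays, which is 13.3% of the members beside 18.1% of all genes. The median log2 difference (VPA minus control) was -0.046 over the 30 members and -0.035 over all genes tested. Differences ran from -0.35 for Fasn to 0.51 for Dhcr7, 9 of them positive and 21 negative (70.0% negative, beside 58.6% of all genes). The 95% interval lay within a 1.5-fold change either way for 27 of 30 members, the others being Dhcr7, Insig2 and Abca1, and within a 2-fold change for all 30. Among all genes, 89.1% had an interval within a 1.5-fold change. Standard errors ran from 0.081 to 0.234, and differences inside these intervals could not be resolved with 3 arrays per group.

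**Figure D1:**
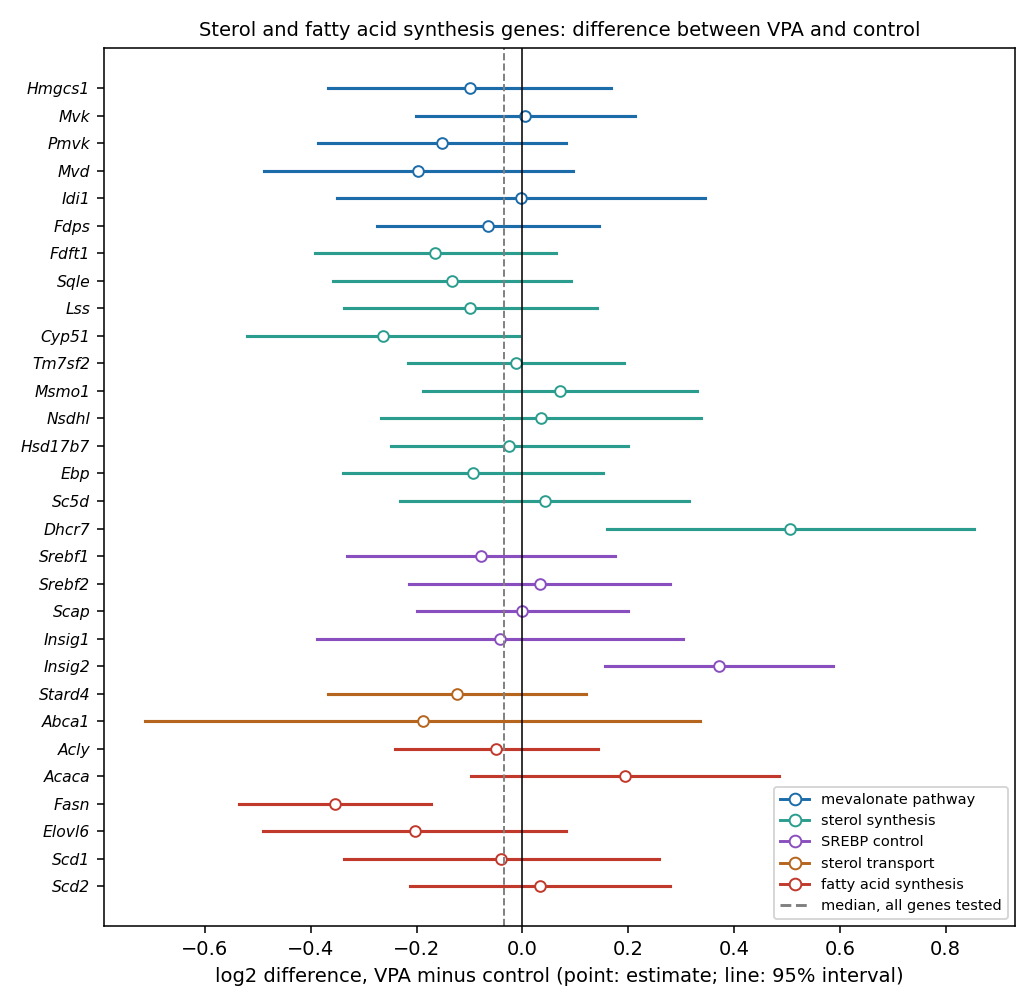
Log2 difference between VPA and control arrays for the 30 measured genes in role order, with points for the estimates, lines for the 95% intervals and a dashed line for the median of all genes tested (-0.035). Open points mark genes that did not pass, which is every gene shown, and Fasn, Cyp51, Insig2 and Dhcr7 have intervals that leave out 0.

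The arrays themselves stood apart for these genes. Control replicate 2 gave the highest of the 3 control values in 26 of 30 members (33.0% of all genes), and VPA replicate 3 gave the lowest of the 3 VPA values in 21 of 30 (32.5% of all genes). Both held at once for 19 of 30 members, beside 17.5% of all genes. VPA replicate 2 gave the highest VPA value in 15 of 30 members (beside 22.4% of all genes), so replicate 2 was often high in both groups. Control replicate 1 gave the lowest control value in 18 of 30 (beside 30.1%). Relative to each gene's mean over the 6 arrays, the median deviation of the members was -0.054, 0.18 and -0.050 for the control arrays in the order of their numbers, and 0.0098, 0.064 and -0.11 for the VPA arrays. The median over all genes stayed between -0.044 and 0.024 in the same arrays. The highest and the lowest array for the pathway thus lay in different groups. What set these 2 arrays apart was not tested.

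**Figure D2:**
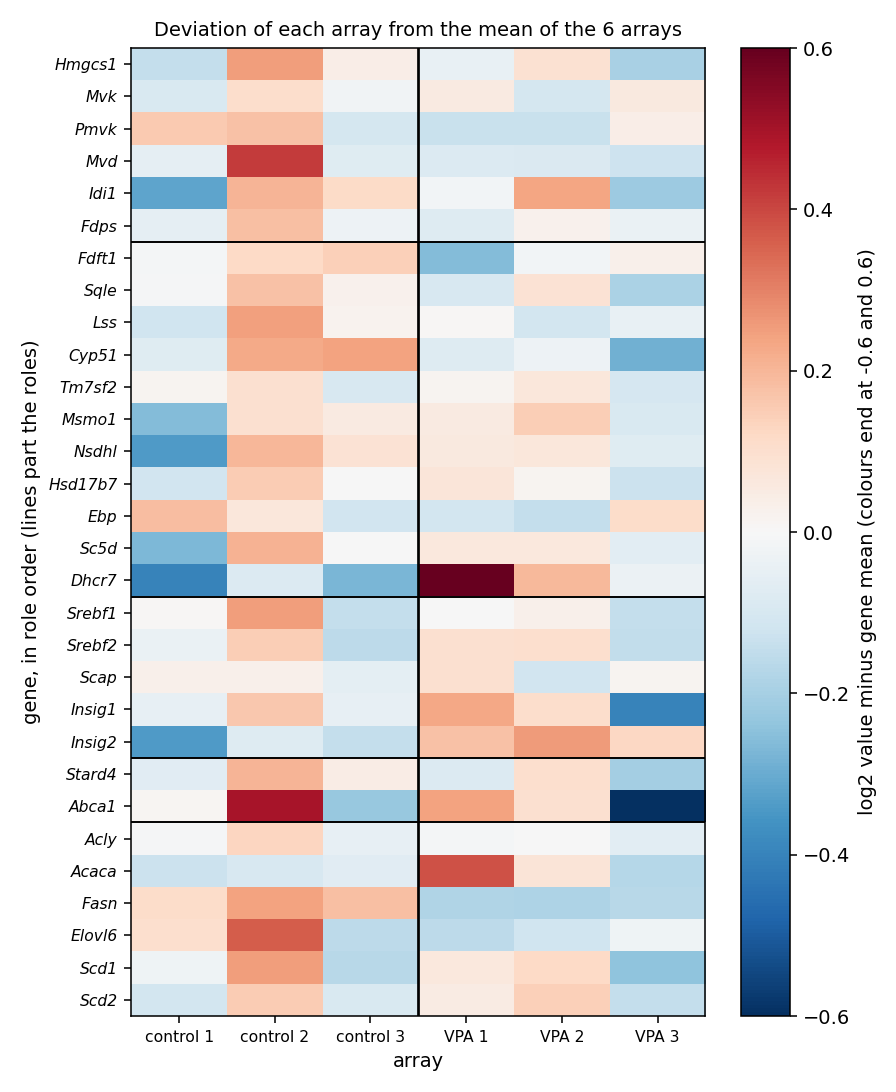
Each cell is the log2 value of a gene (rows, in role order) in an array (columns) minus the mean of that gene over the 6 arrays, with red above and blue below the mean. The column of control 2 is red for most rows and that of VPA 3 is blue for most rows, with medians of 0.18 and -0.11.

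**Figure D3:**
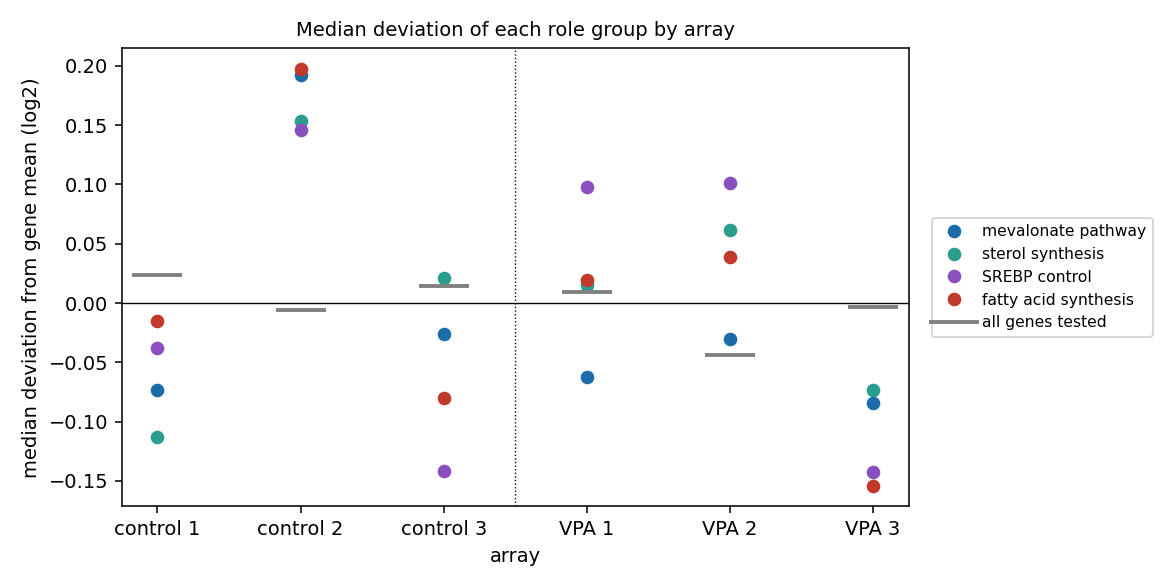
Median deviation from the gene mean (log2) of 4 role groups in each of the 6 arrays, with grey bars for all genes tested; the group of sterol transport, with 2 measured genes, is left out. All 4 groups are highest in control 2, at 0.15 to 0.20.

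Without control replicate 2 the median member difference was 0.021, and without the other arrays, left out singly, it lay between -0.091 and -0.016. Leaving out both control replicate 2 and VPA replicate 3 raises the difference of any gene with this pattern by construction, so the values without both are a description of these arrays and support no change: the median member difference was then 0.076, and that of all genes -0.054. In that fit 1 of 30 members passed, Dhcr7, beside 6.77% of all genes. The groups of values did not overlap for 4 of 30 members (13.3%, beside 23.1% of all genes): Insig2 and Dhcr7 were higher and Fasn and Mvd lower in every VPA array. An exact two-sided permutation test gave p = 0.1 for each of the 4, the smallest that 3 against 3 arrays allow. Groups that do not overlap always give this value, so the test adds nothing to the lack of overlap.

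The stretches of DNA before the start sites of 5 members are shown because 4 of them had the smallest p-values and the other, Hmgcs1, was the single member whose window held a string like the classical sterol regulatory element. Each is the 150 bases before an annotated transcript start, read 5′ to 3′ on the strand of the gene, from RefSeq on assembly GRCm38.p6. Capitals mark CCAAT or its reverse complement ATTGG, the core of the sites of NF-Y, a factor known to act with SREBP, and TCACNCCAC or its reverse complement GTGGNGTGA, a form of the SREBP site. The E-box CACGTG, its own reverse complement, was searched too and was not in these 5 windows. Insig2 and Dhcr7 have 3 listed starts each, and the window shown is the one of each gene that held a match. 
Fasn, chr11:120824548-120824697, minus strand: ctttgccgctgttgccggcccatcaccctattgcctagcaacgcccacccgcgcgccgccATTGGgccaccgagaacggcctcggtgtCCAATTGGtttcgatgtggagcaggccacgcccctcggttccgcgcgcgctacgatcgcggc
Insig2, chr1:121332590-121332739, minus strand: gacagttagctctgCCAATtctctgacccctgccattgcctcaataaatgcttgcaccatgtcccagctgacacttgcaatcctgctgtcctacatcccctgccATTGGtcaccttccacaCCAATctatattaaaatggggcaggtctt
Dhcr7, chr7:143830064-143830213, plus strand: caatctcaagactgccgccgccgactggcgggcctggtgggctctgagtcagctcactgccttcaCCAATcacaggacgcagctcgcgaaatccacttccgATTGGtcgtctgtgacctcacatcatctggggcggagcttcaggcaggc
Cyp51, chr5:4104698-4104847, minus strand: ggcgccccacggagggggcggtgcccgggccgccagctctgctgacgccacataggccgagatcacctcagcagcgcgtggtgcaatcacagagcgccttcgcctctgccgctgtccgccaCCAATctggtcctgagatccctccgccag
Hmgcs1, chr13:119690201-119690350, plus strand: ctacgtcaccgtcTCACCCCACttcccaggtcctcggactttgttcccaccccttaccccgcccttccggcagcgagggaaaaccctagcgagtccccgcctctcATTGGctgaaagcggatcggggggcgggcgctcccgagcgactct
In the Fasn window the reverse CCAAT starts 90 and 59 bases and the forward CCAAT 62 bases before the transcript start, the last pair overlapping. The string TCACNCCAC of Hmgcs1 starts 137 bases before the start, and a reverse CCAAT lies at 45. In Insig2 the 3 matches to CCAAT start 136, 46 and 29 bases before the start, in Dhcr7 the 2 matches start at 85 and 49, and in Cyp51 the one match starts at 29. The RefSeq table held windows for 24 of the 30 measured members, 32 windows in all. CCAAT on either strand was in 18 of these 32 windows (56.2%), beside 24.5% of the 32851 windows in the table. The E-box was in 5 of 32 (15.6%, beside 4.3%), those of Abca1, Hsd17b7, Insig1, Sc5d and Scap, and TCACNCCAC was in 1 of 32 (3.12%, beside 0.639%). These matches describe letters in a window of 150 bases, and no binding was measured.

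Among the fatty acid synthesis enzymes, Fasn, the synthase that makes palmitate, had lower values in all VPA arrays. Its log2 values were 11.12, 11.25 and 11.19 in the control arrays (replicates 1, 2 and 3, in this order throughout) and 10.83, 10.83 and 10.85 in the VPA arrays. The control mean was 11.19 ± 0.065 (SD, n = 3) and the VPA mean 10.84 ± 0.010 (SD, n = 3), and every VPA value lay below every control value. The log2 difference was -0.35 (SE 0.081, 95% interval -0.54 to -0.17), a 1.28-fold higher level in control cells. With an adjusted p of 0.0567 by limma, Fasn did not pass. Fasn did not share the pattern of VPA replicate 3, and its difference was -0.33 without that array and control replicate 2. Its adjusted p fell on either side of the threshold in other settings, from 0.0312 with a second quantile normalization to 0.189 with variances not moderated across genes. It passed in no fit that left out a single array, where the adjusted p by limma ran from 0.0794 to 0.184.

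The steps on either side of Fasn did not pass either. Acaca, the carboxylase that supplies malonyl-CoA, gave 11.24, 11.27 and 11.30 in the control arrays and 11.75, 11.44 and 11.20 in the VPA arrays. VPA replicate 3 lay below all controls and the other VPA arrays above them, for a log2 difference of 0.19 (SE 0.13, adjusted p = 0.46). Acly, which makes cytosolic acetyl-CoA from citrate, differed by -0.049 (SE 0.0857, adjusted p = 0.792). Elovl6, which lengthens palmitate, gave 10.59, 10.86 and 10.33 against 10.33, 10.37 and 10.46, a log2 difference of -0.20 (SE 0.127, adjusted p = 0.431) with overlapping groups. The desaturase gene Scd1 gave 12.21, 12.49 and 12.07 in the control arrays and 12.30, 12.36 and 11.995 in the VPA arrays. In both groups replicate 2 was highest and replicate 3 lowest, and the log2 difference was -0.040 (SE 0.133, adjusted p = 0.899). Its paralog Scd2 differed by 0.034 (SE 0.11, adjusted p = 0.897). For the 6 fatty acid enzymes the median difference was -0.045, and all 6 intervals lay within a 1.5-fold change.

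**Figure D4:**
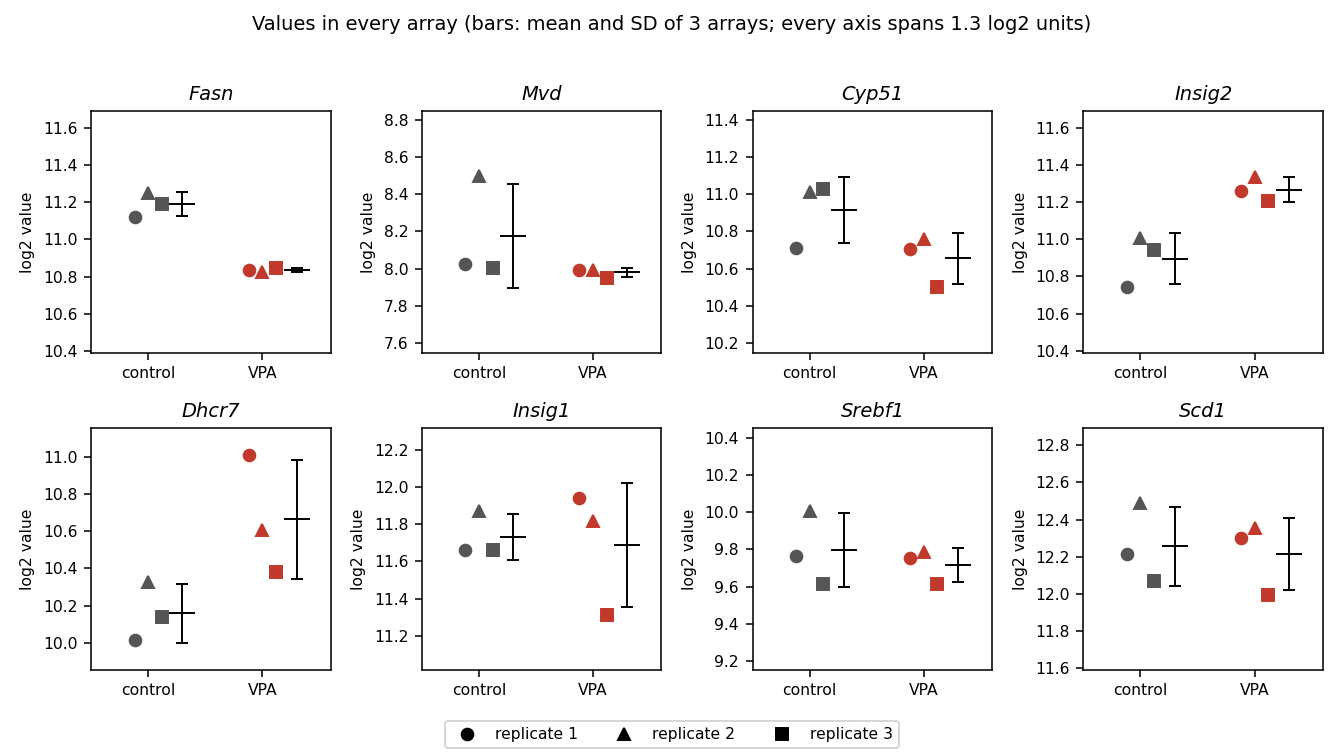
Log2 values of 8 genes in the 3 control arrays (grey) and the 3 VPA arrays (red), with a symbol for each replicate number and black bars for the mean and SD; every axis spans the same 1.3 log2 units. Fasn values lie tightly together within each group, while Insig1, Srebf1 and Scd1 spread within the groups and overlap.

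Of the 5 genes that control SREBP none passed, and Insig2 had the largest difference. Insig2, one of the 2 membrane proteins that keep the complex of Scap and SREBP in the endoplasmic reticulum, gave log2 values of 10.74, 11.00 and 10.94 in the control arrays and 11.26, 11.34 and 11.21 in the VPA arrays. Every VPA value lay above every control value. The log2 difference was 0.37 (SE 0.096, 95% interval 0.16 to 0.59), or 1.29-fold, with an adjusted p of 0.0829 by limma. The probe set does not say which of the 3 listed starts of Insig2 was used.

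Insig1, the other of these proteins and itself a well-known SREBP target, gave 11.66, 11.87 and 11.66 in the control arrays and 11.94, 11.82 and 11.31 in the VPA arrays. VPA replicate 3 was the lowest of the 6 values and VPA replicate 1 the highest, for a log2 difference of -0.042 (SE 0.154, 95% interval -0.39 to 0.30, adjusted p = 0.909). Whether the Insig2 and Insig1 differences are unequal was not tested. The gene Srebf2, whose product drives the sterol enzymes, gave 11.50, 11.68 and 11.38 against 11.63, 11.63 and 11.38, and the log2 difference was 0.033 (SE 0.11, adjusted p = 0.9). Srebf1, whose product favours the fatty acid enzymes, gave 9.76, 10.01 and 9.61 against 9.75, 9.79 and 9.61, and the log2 difference was -0.078 (SE 0.113, adjusted p = 0.748). For both factors the groups overlapped and replicate 3 was lowest in each group. Scap, the escort of SREBP, had the smallest difference of all members, with 9.98, 9.98 and 9.90 in the control arrays and 10.05, 9.84 and 9.97 in the VPA arrays (log2 difference -0.000343, SE 0.0887, 95% interval -0.20 to 0.20).

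In the sterol branch, Dhcr7, the reductase of the last step to cholesterol, had the largest difference of the members. Its log2 values were 10.01, 10.33 and 10.14 in the control arrays and 11.01, 10.61 and 10.38 in the VPA arrays. All VPA values were above the controls, but VPA replicate 3 cleared control replicate 2 by little and VPA replicate 1 stood well above the rest. The log2 difference was 0.51 (SE 0.155, 95% interval 0.16 to 0.85), or 1.42-fold, with an adjusted p of 0.127 by limma. Without VPA replicate 3 the difference was 0.65 with an adjusted p of 0.0423, in a fit where 4.09% of all genes passed, and Dhcr7 was then the 1 member of 30 that passed. Without VPA replicate 1 it was 0.33, with an adjusted p of 0.304. VPA replicate 3 holds the lowest VPA value of Dhcr7 and VPA replicate 1 the highest, so the size and the call moved with the array left out.

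Cyp51, the demethylase that acts on lanosterol, gave 10.71, 11.01 and 11.03 in the control arrays and 10.71, 10.76 and 10.50 in the VPA arrays. Control replicate 1 lay among the VPA values, so the groups overlapped. The log2 difference was -0.26 (SE 0.114, 95% interval -0.52 to -0.0072, adjusted p = 0.263), and it shrank to -0.14 (adjusted p = 0.524) without control replicate 2 and VPA replicate 3. Leaving out these arrays raises the Cyp51 difference by construction. Fdft1, squalene synthase, gave 10.96, 11.09 and 11.11 against 10.71, 10.96 and 11.00, a log2 difference of -0.16 (SE 0.102, adjusted p = 0.425) with overlap. Sqle, squalene epoxidase, differed by -0.13, and Lss, which closes the ring to lanosterol, by -0.098 (adjusted p 0.511 and 0.652). Msmo1, Nsdhl and Hsd17b7, which take part in removing methyl groups from the ring, differed by 0.071, 0.036 and -0.024 (adjusted p 0.777, 0.912 and 0.92). The sterol reductase gene Tm7sf2, the isomerase gene Ebp and the desaturase gene Sc5d differed by -0.013, -0.093 and 0.042 (adjusted p 0.954, 0.68 and 0.882). Of the 11 sterol enzymes, 4 differences were positive and 7 negative, with a median of -0.024.

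The 6 measured genes of the mevalonate steps had a median difference of -0.082, 1 positive and 5 negative, and none passed. Mvd, the decarboxylase that makes isopentenyl diphosphate, gave 8.02, 8.50 and 8.005 in the control arrays and 7.99, 7.99 and 7.95 in the VPA arrays. Its groups did not overlap, yet control replicates 1 and 3 lay next to the VPA values and control replicate 2 stood far above them. The log2 difference was -0.20 (SE 0.13, adjusted p = 0.455), and it was -0.022 without control replicate 2 and VPA replicate 3. Leaving out these arrays raises the Mvd difference by construction. Hmgcs1, the synthase that starts the branch, gave 11.19, 11.58 and 11.37 against 11.29, 11.42 and 11.14, with overlap and a log2 difference of -0.099 (SE 0.119, adjusted p = 0.69). Idi1, the isomerase of isopentenyl diphosphate, gave 11.96, 12.47 and 12.39 against 12.25, 12.51 and 12.05. Its difference was -0.00190 (SE 0.155, 95% interval -0.35 to 0.35), with replicate 2 highest in both groups. Mvk, mevalonate kinase, gave 8.84, 9.04 and 8.91 against 8.99, 8.83 and 8.99, a log2 difference of 0.00548 (SE 0.0924, adjusted p = 0.98). Pmvk, the next kinase, and Fdps, which makes farnesyl diphosphate, differed by -0.15 and -0.065 (adjusted p 0.473 and 0.746).

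Of the 2 measured genes of sterol movement neither passed. Abca1, the exporter that loads cholesterol onto lipoprotein and a target of the LXR receptors, gave 9.75, 10.23 and 9.51 in the control arrays and 9.98, 9.84 and 9.12 in the VPA arrays. Control replicate 2 was its highest value and VPA replicate 3 its lowest. The log2 difference was -0.19 (SE 0.234, 95% interval -0.71 to 0.34, adjusted p = 0.701), and it was 0.27 (adjusted p = 0.206) without these 2 arrays. Leaving out these arrays raises the Abca1 difference by construction. Stard4, a soluble sterol carrier, differed by -0.12 (SE 0.109, adjusted p = 0.576).

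Other genes of the pathway, from a list of 25 sterol genes and one of 34 fatty acid genes, were measured in 16 and 32 cases. None of the 16 sterol genes passed limma's test, and 4 had an unadjusted p under 0.05 (25.0%, beside 18.1% of all genes). Of the 16, 6 had groups that did not overlap (beside 23.1% of all genes), and the median log2 difference was -0.027. Ch25h, which makes an oxysterol from cholesterol, gave 5.99, 6.33 and 5.96 in the control arrays and 6.71, 6.72 and 6.35 in the VPA arrays. Its means, 6.09 in control and 6.59 in VPA arrays, lay below the array medians of 7.15 to 7.18. Its values were all higher with VPA, at a log2 difference of 0.50 (SE 0.135, adjusted p = 0.0945). It passed without control replicate 2, its highest control value (adjusted p = 0.0483), or VPA replicate 3, its lowest VPA value (adjusted p = 0.0324), and in none of the other 4 fits that left out a single array, where the adjusted p ran from 0.255 to 0.291. Nr1h3, the gene of the receptor LXR alpha, differed by -0.44 (SE 0.129, adjusted p = 0.118) with all VPA values below the controls. Npc1, which carries cholesterol out of lysosomes, differed by 0.34 (SE 0.122, adjusted p = 0.183) with all VPA values above the controls, and by 0.22 (adjusted p = 0.42) without VPA replicate 1.

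Of the 32 fatty acid genes, 2 rose (beside 1.71% of all genes), 1 fell (beside 0.632%) and 29 did not pass, and the median log2 difference was 0.084. Of the 32, 14 had an unadjusted p under 0.05 (43.8%, beside 18.1% of all genes), 10 with higher and 4 with lower values in the VPA arrays, and 15 had groups that did not overlap (23.1% of all genes). Both lists of other genes were chosen with earlier results of these data known, so such shares describe the lists and test nothing. Elovl4, which makes very long fatty acids, gave 8.45, 8.64 and 8.72 in the control arrays and 9.79, 9.44 and 9.59 in the VPA arrays. It rose 2.01-fold (log2 difference 1.01, SE 0.114, limma adjusted p = 0.00859), with the groups far apart. Elovl7, another elongase gene, gave 6.20, 5.80 and 6.12 against 7.21, 6.67 and 6.61 and rose 1.73-fold (log2 difference 0.79, SE 0.165, adjusted p = 0.044). The Elovl7 means, 6.04 in control and 6.83 in VPA arrays, lay below the array medians of 7.15 to 7.18, and the arrays give no detection call. Acsl5, which activates long-chain fatty acids by joining them to coenzyme A, gave 11.10, 11.14 and 11.23 against 10.27, 10.56 and 10.71. It fell by 0.65 on the log2 scale (SE 0.117, adjusted p = 0.0275), and no VPA value reached a control value. Elovl4 passed whichever single array was left out. Acsl5 did not pass when control array 1 or 3 (adjusted p 0.0989 or 0.0965) or VPA array 1 or 2 (0.0801 or 0.0915) was left out. Elovl7 did not pass when any control array (adjusted p 0.108, 0.0773 or 0.103) or VPA array 1 or 2 (0.107 or 0.0981) was left out. Dgat2, an enzyme of the last step to triglyceride, and Acss2, which makes acetyl-CoA from acetate and is an SREBP target, had log2 differences of 0.63 and 0.61 (adjusted p 0.0743 and 0.0781), and were chosen after their values were seen.

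**Figure D5:**
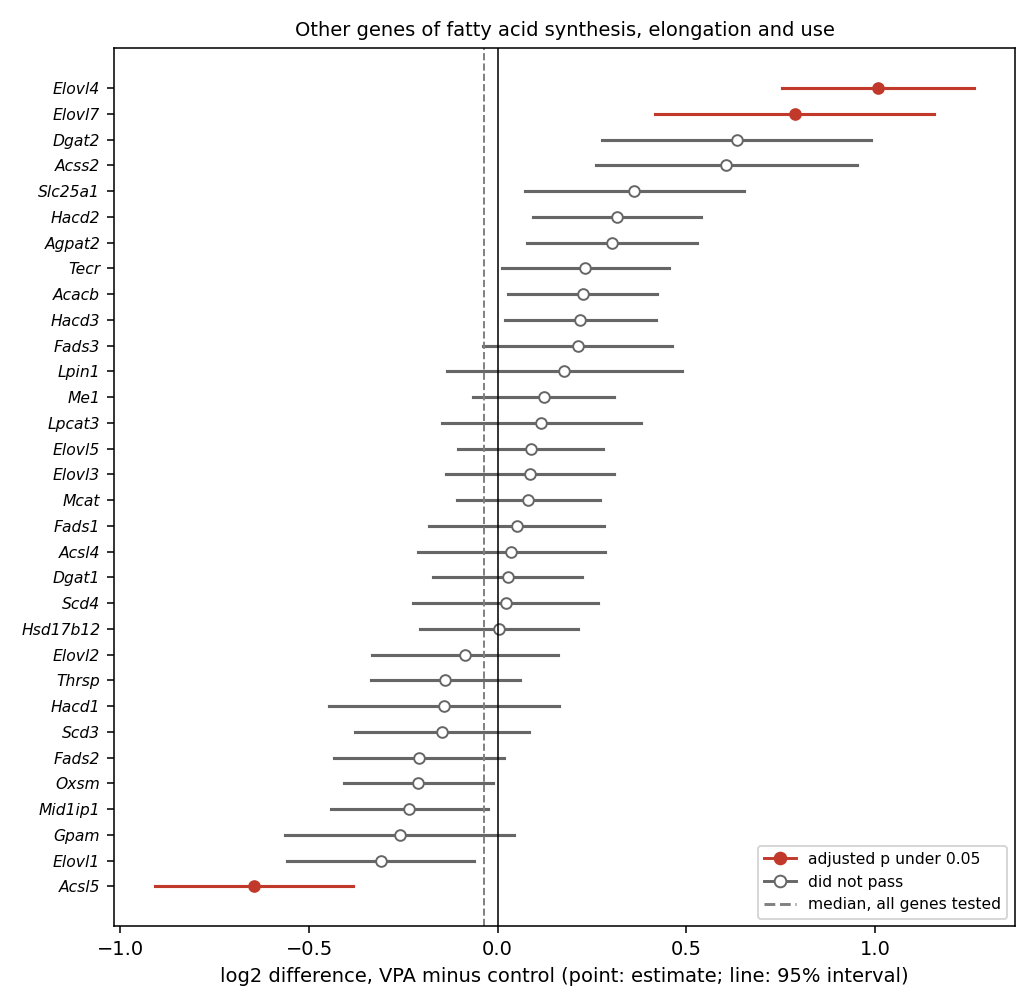
Log2 difference between VPA and control for the 32 other fatty acid genes, in order of the estimate, with 95% intervals; filled red points passed at an adjusted p under 0.05. Elovl4 and Elovl7 lie at the top, at 1.01 and 0.79, and Acsl5 at the bottom, at -0.65.

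Markers of the labelled and of other cell types were read from the same arrays, which give no detection call. Of 11 measured prostate and epithelial markers, 3 had a mean above the median of the table: Krt8, Krt19 and Hoxb13. Their control and VPA means were 7.75 and 7.44 for Krt8, 8.02 and 8.43 for Krt19, and 7.88 and 7.93 for Hoxb13. Pbsn, the probasin gene of prostate secretory cells, was the lowest of the list, between 3.41 and 3.76. The list mean ran from 6.49 to 6.66 in control and from 6.56 to 6.64 in VPA arrays. Of 10 pluripotency markers, 2 lay above the table median, Pou5f1 was between 4.99 and 5.86, Zfp42 between 4.13 and 4.43 and Sox2 between 10.98 and 11.71. The pluripotency list mean ran from 6.49 to 6.66 in control and from 6.29 to 6.46 in VPA arrays, so the groups did not overlap. Of its differences 10 of 10 were negative, beside 58.6% of all genes, and 0 of 10 passed. The cell type fields call the VPA samples undifferentiated stem cells, and whether this list bears on those fields was not tested. The part of this list in the results above was not tested. The fibroblast list (7 markers, 6 above the median) ran from 9.13 to 9.29 and from 9.08 to 9.28. Its highest marker, Dcn, decorin, was between 13.98 and 14.13, and its lowest, Lum, between 4.04 and 4.24. The leukocyte, adipocyte and hepatocyte lists had 1 of 6, 2 of 6 and 0 of 5 markers above the median. Their list means were 6.29 to 6.43, 6.58 to 6.65 and 5.79 to 5.89 in control arrays and 6.27 to 6.38, 6.53 to 6.62 and 5.74 to 5.87 in VPA arrays. No marker of these 6 lists passed limma's test over all genes.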

How the data were processed

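Messenger RNA was measured in 6 samples, 3 control and 3 VPA, grouped and numbered by their titles. The authors deposited log2 values; the submitters' processing notes name RMA and Affymetrix Expression Console, the file being one table of probe sets by arrays. RMA gives all arrays one distribution, so a shift of most genes would not show. Tool versions were not given in the sources used here. Array medians were 7.15 to 7.18.

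Of 35556 probe sets, 21789 had 1 gene symbol, 1621 several and 12146 none listed. Symbols were checked by Entrez identifier against RefSeq (GRCm38.p6). VPA was compared with control with limma 3.58.1 (lmFit, eBayes; R 4.3.3) over all 19938 genes, two-sided, with Benjamini-Hochberg adjustment and a threshold of 0.05. The fit was tested on simulated data. Intervals are 95% intervals from the moderated fit. Marker levels are set beside the median of the table only as a rough description, since probe sets differ in brightness.

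The members and lists were chosen with earlier results of these data known. By the rule for named genes, every array value is given for the members with the 8 smallest p-values, the 3 largest and the 3 smallest differences, Srebf1, Srebf2, Insig1, Fasn and Scd1, and every other member has its difference. Hmgcs1 (its promoter included), Abca1, Ch25h, Dgat2 and Acss2 have more values than the rule asks, chosen after their values were seen. Of the other pathway lists, genes that passed are named, or the 3 with the smallest p. 3 genes that the rule named in any case had no match and were not analysed here.

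The alternatives were median centring, a second quantile normalization, a filter at a log2 value of 6 in 3 arrays, a robust prior with an intensity trend, array weights, a block on the replicate number, probe sets averaged per gene, an ordinary test without moderation, and leaving out arrays.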

Additional observations from a re-analysis of the deposited data

How the results depend on the processing

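The count of 0 members that passed became 1 with a second quantile normalization, with median centring of the arrays, with the filter on low values and with array weights (Fasn each time), and 2 with an intensity trend and robust prior (Fasn and Insig2). In these fits, in the same order, 2.53%, 2.36%, 4.14%, 3.58% and 3.43% of all genes tested passed. The member count was 1 (Dhcr7, beside 6.77% of all genes) without control replicate 2 and VPA replicate 3. With each array left out in turn it was from 0 to 1, beside 0.100% to 4.09% of all genes. The ordinary test without moderation gave 0, with 2 members at an unadjusted p under 0.05. The count over all genes, 467, became 714 with array weights, 0 with the ordinary test, 1349 without control replicate 2 and VPA replicate 3, and 20 to 815 with single arrays left out. The median member difference, -0.046, became 0.076 without control replicate 2 and VPA replicate 3, which their choice favours, and ran from -0.091 to 0.021 with single arrays left out, being positive without control replicate 2. Of 30 members, 19 changed sign in at least 1 of 15 alternatives, none of them with an unadjusted p under 0.05. With 3 arrays per group, differences inside the printed 95% intervals were not resolved, and RMA values give no signal over background.

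With the replicate number as a block, 1199 genes (6.01% of all genes) and 2 of 30 members passed limma's test. The members were Fasn (adjusted p = 0.0415) and Insig2 (adjusted p = 0.0426), and of the other sterol genes Ch25h passed (adjusted p = 0.0208). Same-numbered control and VPA arrays correlated in their deviations from the group means at 0.0841, 0.451 and 0.284 for numbers 1, 2 and 3. Arrays with different numbers correlated at between -0.429 and 0.200. Control replicates 2 and 3 correlated best with the VPA array of their own number, and control replicate 1 with VPA replicate 3, at 0.20. The main fit did not pair the samples by number. Fasn and Insig2 passed with the block and not in the main fit, so their calls depend on that choice. Whether same-numbered samples share a day or batch was not tested.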

Other observations

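Second probe sets were read for 3 members. A second probe set of Acaca gave 10.15, 10.19 and 10.17 in the control arrays and 10.57, 10.50 and 10.24 in the VPA arrays, a log2 difference of 0.26. There VPA replicate 3 lay above the controls, whereas on the probe set used it lay below them. For Idi1 the second probe set differed by 0.015 and for Fdft1 by -0.12. A probe set listed for Srebf2 along with other symbols, and so used for no gene, differed by 0.079.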
